A study of Mus musculus with 18 samples.

Results

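The BCL2 family genes described here are 10 genes that decide whether a cell keeps its mitochondria intact or dies by apoptosis: Bcl2, Bcl2l1, Mcl1, Bcl2l11, Bax, Bak1, Bid, Bad, Bbc3 and Pmaip1. They were chosen by symbol, and all 10 were found among the 23284 mouse gene symbols of the Th2 cell and lung tables and, in upper case, among the 25548 human symbols of the eosinophil tables. The study measured RNA in 18 libraries, 6 groups of 3. Memory Th2 cells (the CD4 T cell type that makes IL-4, IL-5 and IL-13) with high ST2, the IL-33 receptor, were cultured for 3 days with IL-2 alone (libraries 1, 3 and 5) or with IL-2 and IL-33 (libraries 2, 4 and 6). Eosinophils were cultured for 3 days without amphiregulin, a growth factor of the EGF family, or with it (libraries 2, 3 and 4 of each). Whole lung came from OVA-treated mice that were wild type or dGATA, called K.O. in the labels (libraries 1, 2 and 3 of each). The series' design text names HDM for the lung where the sample labels name OVA, and the labels are followed here. All groups are labelled BALB/c, and the labels spell out neither the dGATA allele nor the animals' age, and do not say if the 3 libraries of a group stem from different animals, cultures or donors. The p-values therefore measure only the spread between these samples, which may be technical.

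Apoptosis through mitochondria is set by contacts between 3 classes of BCL2 family protein. Pro-survival proteins, encoded here by Bcl2, Bcl2l1 (BCL-XL) and Mcl1, hold in check the effectors BAX and BAK, which otherwise open pores in the outer mitochondrial membrane and release cytochrome c. BH3-only proteins, encoded by Bcl2l11 (BIM), Bid, Bad, Bbc3 (PUMA) and Pmaip1 (NOXA), start the process by binding the pro-survival proteins, and some of them also switch on the effectors directly. In T cells IL-2 is a survival cytokine, and BIM is known for removing activated T cells when cytokines are withdrawn.

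The 4 genes called between the Th2 groups below were all BH3-only genes. The 250 bases before the first RefSeq start of 3 of them are shown (GRCm38.p6, gene strand, 5′ to 3′), because Bcl2l11 and Bid fell together while Bbc3 rose. Capitals mark the GC box GGGCGG, searched on both strands, and the forkhead motif TGTTTAC, also on both strands, the core letters that FOXO factors bind.
Bcl2l11, chr2:128125788-128126037, plus strand: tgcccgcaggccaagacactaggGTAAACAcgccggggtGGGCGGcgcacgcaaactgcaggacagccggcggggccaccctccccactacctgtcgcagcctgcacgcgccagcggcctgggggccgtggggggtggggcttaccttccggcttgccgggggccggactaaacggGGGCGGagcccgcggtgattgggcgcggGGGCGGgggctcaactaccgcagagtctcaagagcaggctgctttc
Bid, chr6:120916825-120917074, minus strand: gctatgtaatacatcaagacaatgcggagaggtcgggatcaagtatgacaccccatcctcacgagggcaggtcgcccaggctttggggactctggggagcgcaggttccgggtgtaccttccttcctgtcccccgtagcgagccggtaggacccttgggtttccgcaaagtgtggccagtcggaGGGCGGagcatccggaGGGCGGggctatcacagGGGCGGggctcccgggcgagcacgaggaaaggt
Bbc3, chr7:16309333-16309582, plus strand: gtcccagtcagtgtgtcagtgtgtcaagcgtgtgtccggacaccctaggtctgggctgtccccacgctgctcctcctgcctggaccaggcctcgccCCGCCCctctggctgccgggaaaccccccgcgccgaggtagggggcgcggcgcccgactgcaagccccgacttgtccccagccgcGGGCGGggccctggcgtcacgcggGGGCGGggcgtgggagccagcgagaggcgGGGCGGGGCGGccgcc
The GC box occurs 3 times in the Bcl2l11 window, 3 times in that of Bid and 5 times in that of Bbc3, and 33% of 32536 mouse windows of the same length hold at least 1. The forkhead letters occur once in the 3 windows shown, 227 bases before the Bcl2l11 start, and 3.17% of all windows hold them. RefSeq gives 3 starts for Bbc3, and the window of the second, not shown, also holds the letters, 167 bases before that start, so a match is found for a gene that fell and for one that rose. The window of the second Bcl2l11 start holds none. CG dinucleotides number 24 for Bcl2l11, 18 for Bid and 27 for Bbc3, beside a median of 6. A match is a description of these letters and says nothing of binding. RefSeq windows were matched for 9 of the 10 genes.

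Read depth, set to 1 in one library per comparison, spanned 0.669 to 1.34 for Th2 cells, 0.363 to 1 for eosinophils and 0.582 to 1 for lung. Levels are in FPKM, fragments scaled to transcript length and library size, so they can be compared between genes per length. Small RNA features took 20.0 to 38.4% of the summed FPKM in eosinophils, 12.1 to 21.4% in Th2 cells and 4.00 to 5.13% in lung. The Th2 libraries held Cd3e, at 144 to 180 FPKM, and Il1rl1, at 44.5 to 517 FPKM. Of the Th2 cell marker list, 6 of 7 genes had a mean of at least 1 FPKM in both Th2 groups. The other, Gpr44, had means of 0.0417 and 0.0390 FPKM without and with IL-33. Epx and Prg2 of eosinophils, Sftpc of lung epithelium and C1qa of macrophages were listed at 0 in all 6 Th2 libraries. Other genes of those lists were present. Means without and with IL-33 were 1.18 and 6.95 FPKM for Ccr3, 6.16 and 3.22 FPKM for Epcam, and 6.36 and 5.65 FPKM for Cd68. Th2 libraries 5 and 6 have titles that spell ST2 high differently from the other 4 and were the shallowest, and results that rest on them are given with and without them. Human genes fill the eosinophil tables, although their labels say mouse. Their 6 eosinophil markers summed to 152 to 625 FPKM without amphiregulin and 358 to 459 FPKM with it. ALOX15 was the largest part, with means of 172 and 228 FPKM without and with amphiregulin. Means of PRG2 were 31.4 and 84.9 FPKM, of CCR3 87.4 and 53.6 FPKM, of SIGLEC8 41.5 and 32.4 FPKM and of IL5RA 6.67 and 2.70 FPKM. EPX had means of 0.668 and 8.81 FPKM and was listed at 0 in at least 1 library. Neutrophil markers, mostly S100A8 and S100A9, summed to 6738 to 19834 FPKM over these 6 libraries. In bulk samples such as these, fewer cells of a type and less RNA per cell cannot be told apart.

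**Figure D1:**
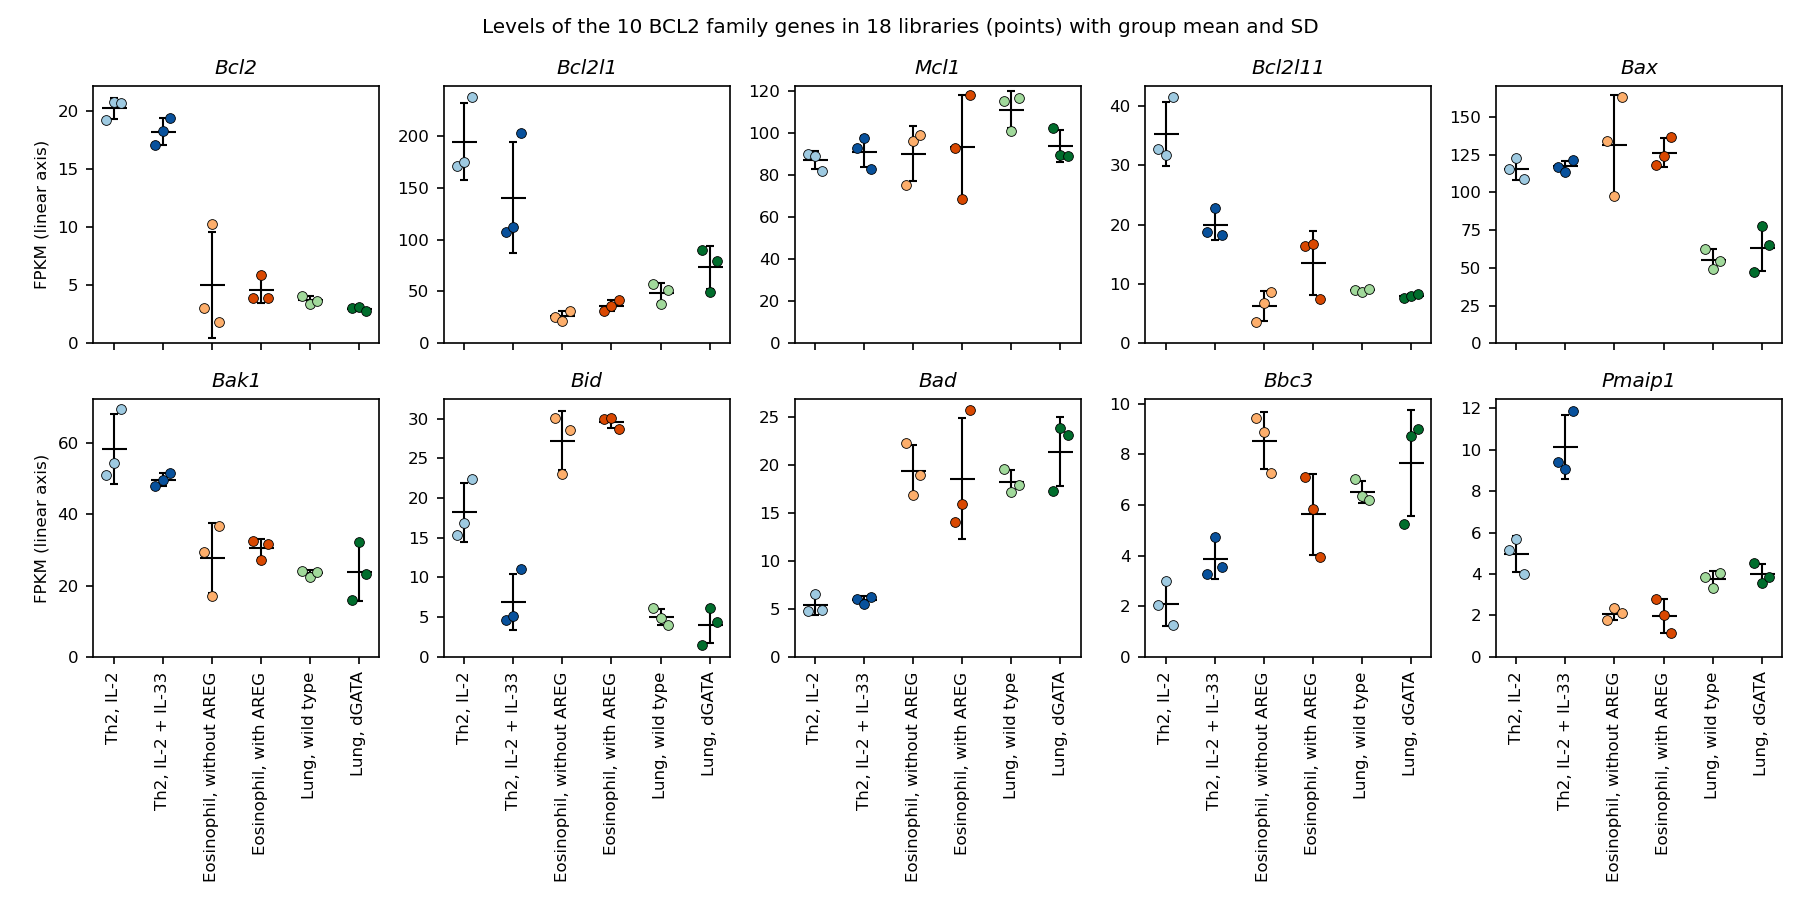
Levels of the 10 genes in FPKM on linear axes starting at 0, with 1 point per library and the mean and SD of each group of 3 in black; eosinophil values are those of the human genes. Bcl2 stands at 17.1 to 20.8 FPKM in the 6 Th2 libraries and at 10.3 FPKM or less in the other 12, whereas each Mcl1 group overlaps the next in order of means.

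Among the pro-survival members Bcl2, Bcl2l1 and Mcl1, Bcl2 had the lowest level in every group. It stood at 19.2, 20.8 and 20.7 FPKM in Th2 cells with IL-2 and at 17.1, 18.3 and 19.4 FPKM with IL-33 added. Lung held 4.07, 3.37 and 3.66 FPKM in wild-type and 3.09, 3.10 and 2.79 FPKM in dGATA animals. Eosinophils ranged more widely, with 3.01, 10.3 and 1.82 FPKM without amphiregulin and 3.95, 5.91 and 3.90 FPKM with it. In order of their means, the Th2 groups led and overlapped each other, then came the eosinophil groups and wild-type lung, each overlapping the next, and dGATA lung was last, below every wild-type library.

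Bcl2l1, whose protein BCL-XL guards BAX and BAK at the mitochondrial membrane, was the most abundant of the 10 genes in the IL-2 libraries, with Bax above it in IL-33 libraries 2 and 4. Its values were 171, 175 and 237 FPKM with IL-2 and 107, 112 and 203 FPKM with IL-33. Libraries 5 and 6 were the highest of their groups, and library 6 exceeded both IL-2 libraries other than 5. Lung held 56.8, 38.4 and 51.7 FPKM (wild type) and 90.3, 49.9 and 79.4 FPKM (dGATA), and eosinophils 25.7, 21.9 and 31.0 FPKM without and 30.9, 36.2 and 42.0 FPKM with amphiregulin. Both Th2 groups lay above every lung library, and from dGATA lung downwards each group overlapped its neighbour.

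Mcl1 encodes a short-lived protein that NOXA marks for destruction, and its RNA differed least between groups. The 6 group means ran from 87.1 ± 4.41 FPKM in Th2 cells with IL-2 to 111 ± 8.66 FPKM in wild-type lung (SD, n = 3), and every group overlapped the next. It was the most abundant pro-survival gene in all eosinophil and lung libraries, and Bcl2l1 was in all Th2 libraries.

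The effector genes were present throughout. Bax means were 132 ± 32.9 and 126 ± 9.49 FPKM in eosinophils without and with amphiregulin, 116 ± 7.09 and 117 ± 3.79 FPKM in Th2 cells without and with IL-33, and 55.5 ± 6.84 and 63.5 ± 15.2 FPKM in wild-type and dGATA lung (SD, n = 3 each). The first 4 groups overlapped in a chain, and all Th2 libraries lay above all lung libraries. Bak1 was lower than Bax in each group, with means of 58.3 ± 9.83 and 49.7 ± 1.86 FPKM in Th2 cells, 27.7 ± 9.87 and 30.4 ± 2.79 FPKM in eosinophils, and 23.5 ± 0.972 and 23.9 ± 8.13 FPKM in lung (SD, n = 3 each). For Bak1 each eosinophil or lung group overlapped the next, and all Th2 libraries lay above them.

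The BH3-only genes ranked differently in each source. Bad, whose product is silenced by growth factor signals through phosphorylation, was 4.74, 6.53 and 4.85 FPKM in Th2 cells with IL-2 and 6.01, 5.48 and 6.25 FPKM with IL-33. Lung held 17.2 to 19.6 FPKM (wild type) and 17.2 to 23.8 FPKM (dGATA), and eosinophils 16.9 to 22.3 FPKM without and 14.0 to 25.8 FPKM with amphiregulin, 4 groups that overlapped in a chain above both Th2 groups. Bid was highest in eosinophils, at 27.3 ± 3.71 and 29.6 ± 0.761 FPKM without and with amphiregulin, and 5.01 ± 1.03 and 4.02 ± 2.31 FPKM in wild-type and dGATA lung (SD, n = 3 each). Bcl2l11 was highest in Th2 cells, and its 6 lung libraries, at 7.63 to 9.23 FPKM, lay below all Th2 libraries. Bbc3 was 6.53 ± 0.436 and 7.66 ± 2.08 FPKM in wild-type and dGATA lung, and 8.53 ± 1.12 and 5.63 ± 1.59 FPKM in eosinophils without and with amphiregulin (SD, n = 3 each). Pmaip1 was lowest in eosinophils, at 2.09 ± 0.284 and 1.98 ± 0.819 FPKM, and stood at 3.76 ± 0.386 and 3.99 ± 0.496 FPKM in wild-type and dGATA lung, where the range overlapped Th2 cells with IL-2 but not those with IL-33. Levels in eosinophils and in the mouse samples come from tables made for different organisms, so their order is a description.

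The comparison of Th2 cultures asks how IL-33 alters cells that already receive IL-2. With IL-33, 4 of the 10 genes passed the test, all of them BH3-only: Bid and Bcl2l11 fell, and Pmaip1 and Bbc3 rose. The pro-survival and effector genes among the 10 did not pass. Each gene was compared with limma on log2(FPKM + 1), with a call at an adjusted p below 0.05 over all 10296 genes that reached 1 FPKM in at least 3 libraries, and all 10 members reached it. Calls were common among all genes, 42.1% in either direction, 16.3% higher and 25.7% lower, so 4 of 10 is near the background. Of all called genes 38.8% were higher, against 55.6% after rescaling to a common sum and 51.5% with median-of-ratios scaling.

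Bid, whose protein links death receptors to mitochondria once caspase-8 has cut it, fell most. It stood at 15.3, 16.8 and 22.4 FPKM with IL-2 and at 4.65, 5.13 and 11.0 FPKM with IL-33. No IL-33 library reached the lowest IL-2 library, although library 6 was well above libraries 2 and 4. The means differed 2.62-fold (log2 difference -1.34, SE 0.295, adjusted p = 0.0114, limma, n = 3 per group, chr6:120893119-120916820, mm10). Leaving out libraries 5 and 6, here and below, sets only libraries 1 and 3 against 2 and 4. A smaller p there rests on fewer libraries and is not read as stronger support. The log2 difference for Bid was then -1.54 (adjusted p = 2.14e-06, limma).

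Bcl2l11 was 32.7, 31.8 and 41.5 FPKM with IL-2 and 18.7, 22.8 and 18.3 FPKM with IL-33. The highest IL-33 library was below the lowest IL-2 library, and library 5 was the highest of all. The means differed 1.77-fold (log2 difference -0.79, SE 0.133, adjusted p = 0.00407, limma, chr2:128126038-128162547). Leaving out libraries 5 and 6 gave -0.62 (adjusted p = 0.000838, limma).

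Pmaip1, whose protein NOXA binds MCL-1 above all, was 5.16, 5.69 and 4.02 FPKM with IL-2 and 9.41, 9.09 and 11.9 FPKM with IL-33. All IL-33 libraries were above all IL-2 libraries, with library 5 the lowest and library 6 the highest of the 6. It rose 2.04-fold (log2 difference 0.90, SE 0.145, adjusted p = 0.00344, limma, chr18:66458604-66465558), and the log2 difference was 0.67 without libraries 5 and 6 (adjusted p = 0.000237, limma).

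Bbc3, a p53 and FOXO target whose protein PUMA binds all the pro-survival proteins, was low throughout: 2.03, 2.99 and 1.26 FPKM with IL-2 and 3.29, 4.75 and 3.54 FPKM with IL-33. The groups were separate, but the gap between the highest IL-2 and the lowest IL-33 library was small. Its 1.84-fold rise (log2 difference 0.68, SE 0.219, adjusted p = 0.0436, limma, chr7:16309583-16318334) was a call that several settings ended. The adjusted p was 0.0503 with a pseudocount of 0.1 FPKM, 0.0916 without a filter, and 0.0595 to 0.142 on leaving out any single library other than IL-2 replicate 3, whereas it was 0.0298 without libraries 5 and 6 (all limma).

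Of the other 6 genes, Bcl2l1 differed most, 1.38-fold lower in mean with IL-33 (log2 difference -0.51, SE 0.260, adjusted p = 0.151, limma). The outcome turned on libraries 5 and 6. Without library 6 Bcl2l1 was called lower (log2 -0.81, adjusted p = 0.00848, limma). Without both libraries 5 and 6, and likewise with a term for those libraries, 5 of the 10 genes were called, the 4 named and Bcl2l1 (log2 -0.66, adjusted p = 0.000184, and log2 -0.51, adjusted p = 0.00487, limma), among 55.9% and 56.6% of all genes. Both alternatives were chosen after seeing the data. The remaining differences on the log2 scale, with 95% intervals, were -0.14 for Bcl2 (-0.34 to 0.05), 0.06 for Mcl1 (-0.15 to 0.27), 0.02 for Bax (-0.17 to 0.21), -0.22 for Bak1 (-0.50 to 0.07) and 0.13 for Bad (-0.17 to 0.43). Groups did not overlap for 4 of the 10 genes, the 4 called, and for 56.7% of all genes.

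**Figure D2:**
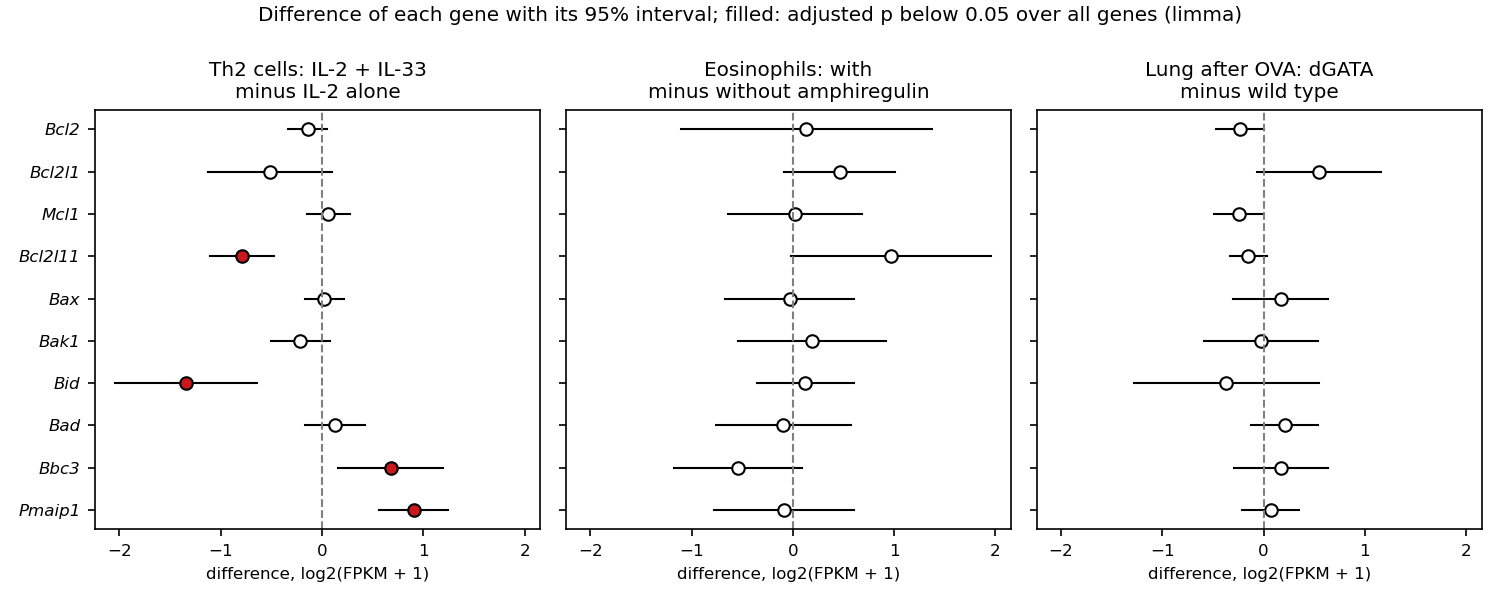
Difference of each gene on the log2(FPKM + 1) scale in the 3 comparisons, with its 95% interval as a bar, and a filled point where the limma adjusted p over all genes was below 0.05. Filled points appear in the Th2 panel alone, at -1.34 for Bid, -0.79 for Bcl2l11, 0.68 for Bbc3 and 0.90 for Pmaip1, and eosinophil intervals are the widest for Bcl2.

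The mix of BH3-only RNA differed between the Th2 groups, and the following shares describe it without a test. Pmaip1 made up 7.65 ± 1.93% of the summed FPKM of the 5 BH3-only members with IL-2 and 21.6 ± 2.14% with IL-33 (SD, n = 3). The sum leaves out the BH3-only gene Bik, which had means of 5.81 FPKM with IL-2 and 11.4 FPKM with IL-33. Bid went from 27.4 ± 2.54 to 14.5 ± 6.17%, and Bcl2l11 from 53.5 ± 3.27 to 42.9 ± 6.36%. The ratio of Mcl1 to Pmaip1, a target and its binder, was 17.8 ± 2.40 with IL-2 and 9.18 ± 1.96 with IL-33. For Bcl2 to Bcl2l11 it was 0.588, 0.655 and 0.499 with IL-2 and 0.912, 0.800 and 1.06 with IL-33. Bcl2, Bcl2l1 and Mcl1 summed to 4.57 ± 0.105 times the 5 BH3-only members with IL-2. With IL-33 they summed to 5.31 ± 0.599 times (SD, n = 3). This ratio leaves out other family genes and holds for these members only. Among those left out, the pro-survival genes Bcl2a1a, Bcl2a1b and Bcl2a1d fell, with Bcl2a1b means of 182 and 93.3 FPKM. The pro-survival gene Bcl2l2 and the BH3-only gene Bik rose. These ratios compare RNA and do not give protein amounts.

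**Figure D3:**
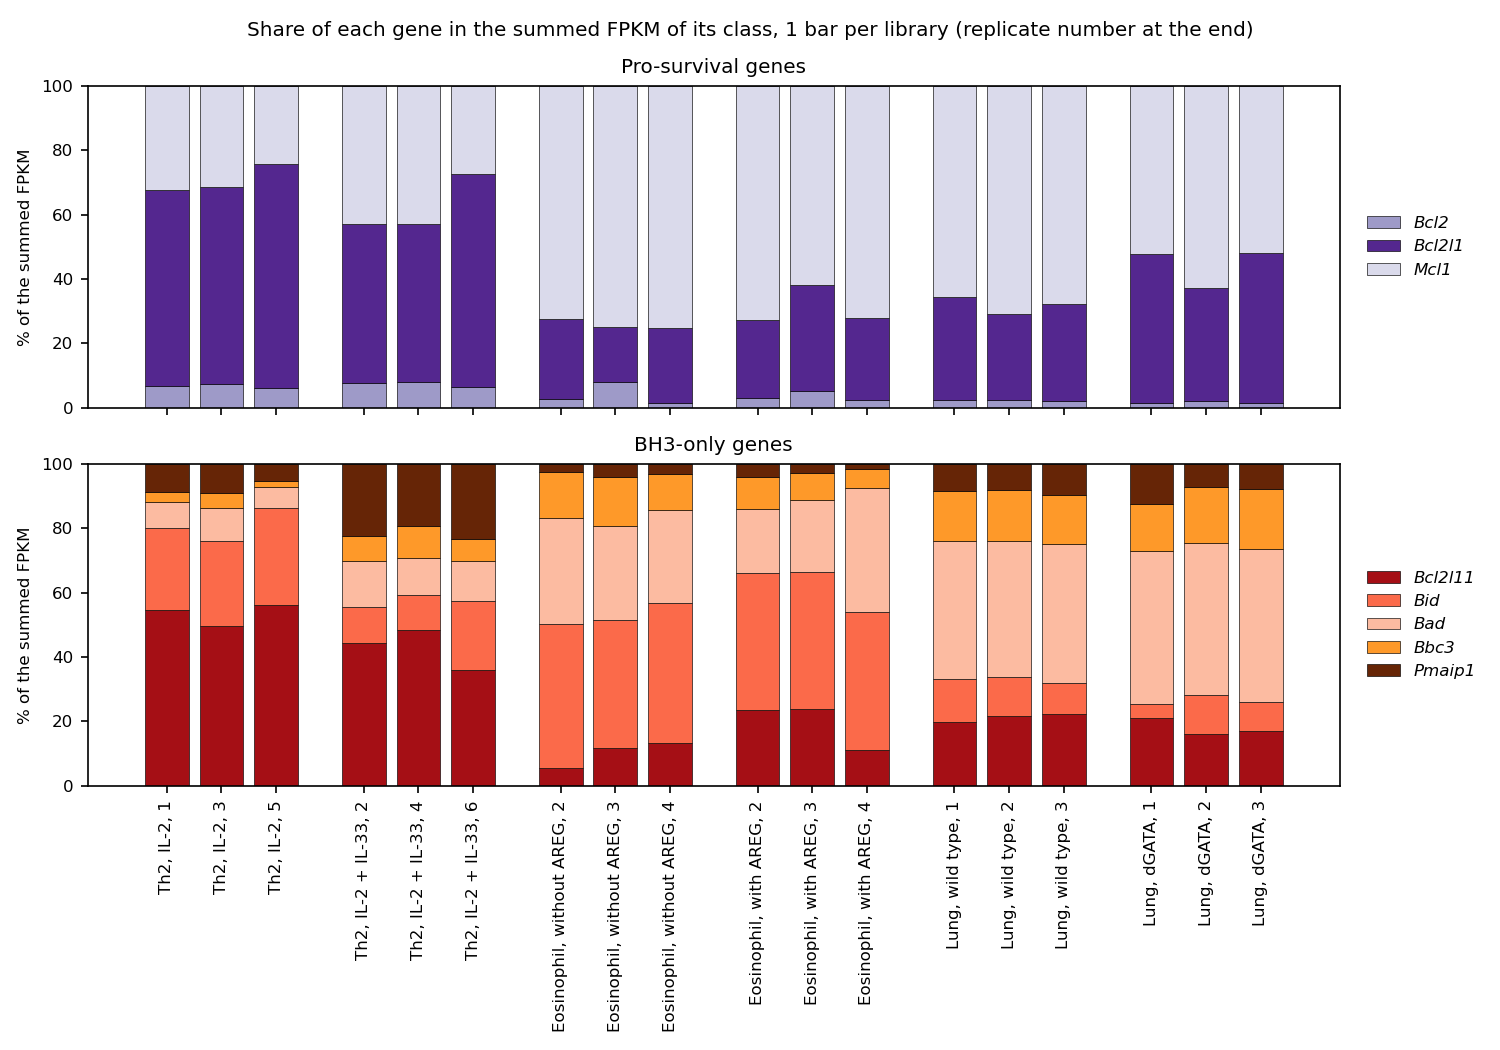
Percent of the summed FPKM of the pro-survival members Bcl2, Bcl2l1 and Mcl1 (upper panel) and the BH3-only members (lower panel) taken by each gene, with 1 bar per library. Bcl2l1 takes 49.1 to 69.8% of the pro-survival sum in the Th2 libraries and Mcl1 52.0 to 75.1% in all others. Among the BH3-only members Bcl2l11 leads in Th2 cells, Bad in lung and Bid in eosinophils.

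Genes that act around the family were counted from lists by role, and no list was tested as a set. The counts here and in the paragraphs below stand beside 42.1% of all genes called, 16.3% higher and 25.7% lower. Of 10 tested further BCL2 family genes, 5 rose and 3 fell with IL-33 (list median log2 difference 0.49, beside -0.06 for the 10 members and -0.11 for all genes tested). Bcl2l14, a relative of uncertain action, rose from 0.487 ± 0.346 to 25.9 ± 16.3 FPKM (log2 4.04, adjusted p = 0.000445, limma), with 44.6 FPKM in library 6 and 17.7 and 15.3 FPKM in libraries 2 and 4. Bcl2l2, a pro-survival gene, rose from 1.74 ± 0.528 to 6.24 ± 0.356 FPKM (adjusted p = 0.000721, limma). Bnip3l, a mitophagy receptor gene, and Bik, a BH3-only gene, rose by log2 differences of 0.97 and 0.84 (adjusted p = 0.000281 and 0.00931, limma). The fifth rise was that of Bnip3. The 3 falls were those of Bcl2a1a, Bcl2a1b and Bcl2a1d, copies of the pro-survival gene A1 so alike that their reads may have been split between them, so their single values are uncertain.

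Of 16 caspase, apoptosome and IAP genes, 4 rose and 1 fell (median log2 difference 0.05). Among the genes that rose, Casp6, a caspase gene, went from 43.7 ± 19.5 to 140 ± 32.2 FPKM (adjusted p = 0.0105, limma). Apaf1, the scaffold of the apoptosome, and Casp2 rose by log2 differences of 0.34 and 0.38 (adjusted p = 0.0164 and 0.0231, limma), and Dffb, which encodes the nuclease that cuts DNA in dying cells, was the fall. Of 11 death receptor genes, 1 rose and 5 fell (median -0.53). Casp8, whose product cuts BID, rose from 70.0 ± 3.14 to 110 ± 6.07 FPKM (adjusted p = 0.00113, limma) while Bid fell. Tnfsf10, the TRAIL gene, fell from 11.6 ± 2.83 to 2.06 ± 0.577 FPKM (adjusted p = 0.000412, limma). Tnfrsf1a and Cflar, the gene of the caspase-8 inhibitor c-FLIP, fell by 0.53 and 0.73 on the log2 scale (adjusted p = 0.00872 and 0.0147, limma).

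FOXO factors are known activators of Bcl2l11 and Bbc3, p53 of Bbc3, Pmaip1 and Bax, and STAT5 and NF-kB of Bcl2l1. Of 11 tested FOXO pathway genes, 5 rose and 1 fell (median log2 difference 0.55), with Irs2, Foxo4 and Ccng2 higher by 2.19, 1.21 and 1.35 and Akt2 lower by a log2 difference of -0.43 (adjusted p = 4.42e-05, 0.000508, 0.00756 and 0.00933, limma). Of 14 tested p53 pathway genes, 1 rose (Trp53inp1, 0.87) and 2 fell (Btg2, -0.46, and Trp53 itself, -0.30; adjusted p = 0.0305, 0.0150 and 0.0207, limma), with a median of 0.07. Of 18 genes of IL-2 and NF-kB signalling, 3 rose (Jak3, Tnfaip3 and Il2ra, by 0.69, 1.21 and 1.17) and 3 fell, Jak1 by 0.32 with the smallest p among them (adjusted p = 0.00208, 0.00325, 0.00445 and 0.0129, limma). Of 6 genes of the mitochondrial outer membrane, 0 rose and 2 fell, the channel gene Vdac1 and Tspo (log2 -0.46 and -0.51, adjusted p = 0.00685 and 0.00936, limma).

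**Figure D4:**
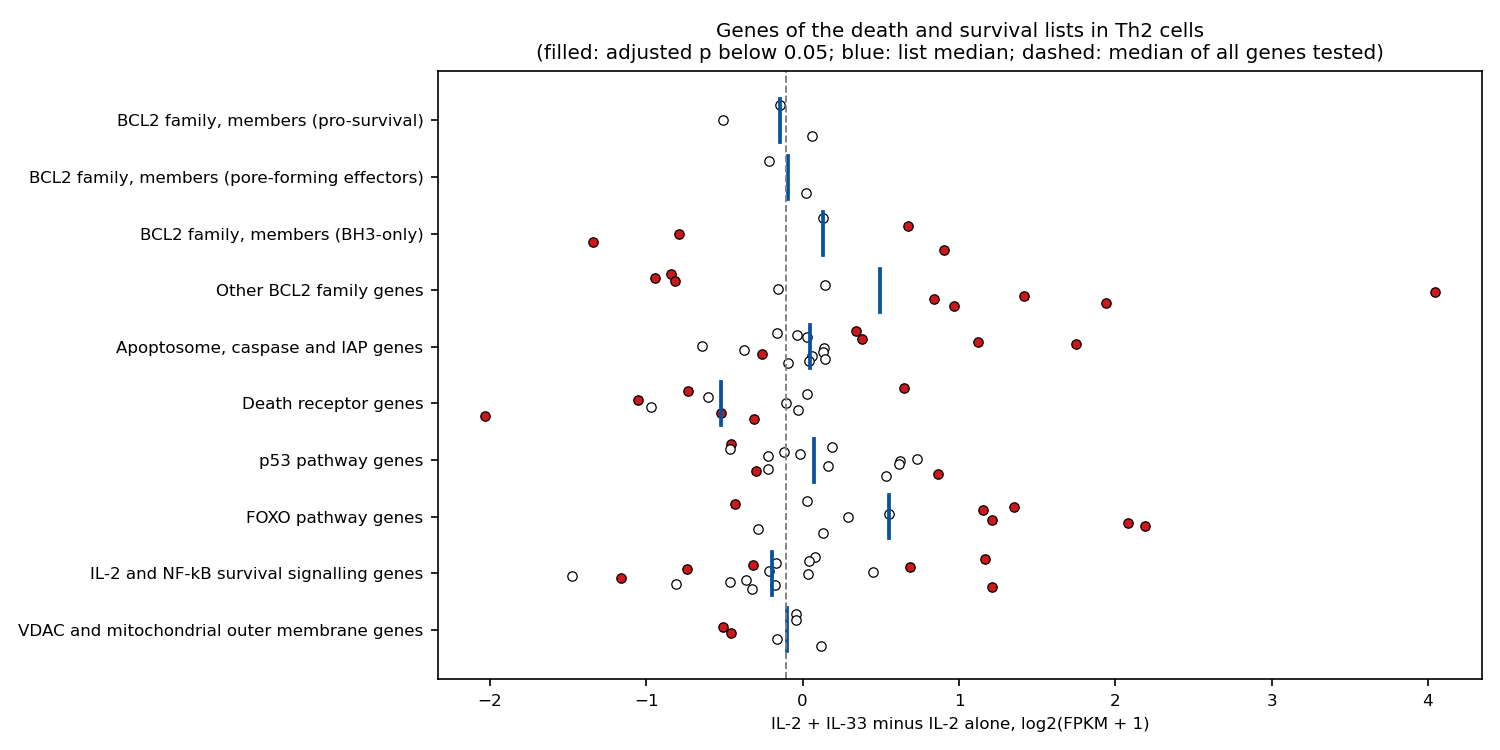
Log2 difference of each tested gene of the 10 lists in Th2 cells, IL-2 with IL-33 minus IL-2 alone, with called genes filled, list medians in blue and the median of all genes tested, -0.11, dashed. The BH3-only genes split to both sides of the dashed line, and the point farthest right, at 4.04, is Bcl2l14.

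Markers beside these results moved in part. The proliferation list (7 genes) summed to 309 to 335 FPKM with IL-2 and 294 to 364 FPKM with IL-33. The T cell list summed to 1185 to 1398 FPKM with IL-2 and 2174 to 2264 FPKM with IL-33. The CD8 T and NK cell list summed to 34.8 to 61.1 FPKM with IL-2 and 313 to 778 FPKM with IL-33, and the granzyme gene Gzma made up a mean of 35.5 FPKM with IL-2 and 582 FPKM with IL-33. Of the other 5 genes of that list, Cd8b1 had means of 4.38 and 12.3 FPKM, Nkg7 6.77 and 2.08 FPKM, and Klrd1 2.11 and 0.0870 FPKM without and with IL-33, Ncr1 was listed at 0 in all 6 libraries and Cd8a did not exceed 0.0699 FPKM. Small RNA features took 20.2 to 21.4% with IL-2 and 12.1 to 18.2% with IL-33. With small RNA features removed and levels rescaled to a common sum, 4 of the 10 genes were called, beside 43.9% of all genes. The part of the marker lists in the result was not tested.

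The eosinophil comparison asks how amphiregulin acts on these cells. None of the 10 genes was called, and 0.206% of 12635 genes tested were (26 genes, with 393 genes at an unadjusted p below 0.05, which none of the 10 reached, limma). Of these calls 15.4% were higher with amphiregulin, against 26.7% after rescaling to a common sum, and with small RNA removed 1 gene was called, higher. Same-numbered libraries deviated together, and so, less strongly, did libraries 2 and 3 across their numbers. With the number as a replicate block 0 of the 10 were called beside 1.12% of all genes. Unadjusted p was then 0.0333 for BCL2L1, 0.0394 for BCL2L11 and 0.0336 for BBC3 (limma). With the block 1423 of the 12635 genes had an unadjusted p below 0.05. Its SE was 0.174 for BCL2L1, 0.383 for BCL2L11 and 0.206 for BBC3, with adjusted p of 0.373, 0.397 and 0.375 (limma). The differences and standard errors that follow are from the fit without the block.

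BCL2L11 had the largest difference. It was 3.62, 6.81 and 8.64 FPKM without and 16.5, 16.8 and 7.40 FPKM with amphiregulin, so that libraries 2 and 3 were higher with it and library 4 was lower. The log2 difference was 0.97 (SE 0.414, 95% interval -0.02 to 1.96, adjusted p = 0.999, limma). BBC3 ran the other way in all pairs, at 9.44, 8.88 and 7.27 FPKM without and 7.11, 5.84 and 3.95 FPKM with amphiregulin, and was the 1 gene of the 10 whose groups did not overlap, beside 6.69% of all genes (log2 -0.54, SE 0.265, adjusted p = 0.999, limma). BCL2L1 was higher with amphiregulin in each numbered pair (log2 0.46, SE 0.231, adjusted p = 0.999, limma). BCL2 turned on library 3 without amphiregulin, 10.3 FPKM against 3.01 and 1.82 FPKM in the other two, and its interval ran from -1.11 to 1.37 log2 units. BID was steady at 23.1 to 30.1 FPKM over the 6 libraries, and PMAIP1 stayed between 1.14 and 2.78 FPKM.

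Macrophage and monocyte markers summed to 3680, 3555 and 704 FPKM without and 1129, 1506 and 489 FPKM with amphiregulin, and T cell markers to 408, 265 and 181 FPKM without and 228, 160 and 99.9 FPKM with it. Neutrophil markers were 19834, 10332 and 8029 FPKM without and 13729, 9644 and 6738 FPKM with it. The sums of these 3 lists were lower with amphiregulin in each numbered pair, but not all their genes were. Within the macrophage list MRC1 was 1.82 ± 1.15 FPKM without and 55.3 ± 38.5 FPKM with it, and CSF1R 39.7 ± 28.8 and 49.5 ± 35.0 FPKM (SD, n = 3). Within the neutrophil list MPO was 9.63 ± 8.75 and 22.4 ± 15.8 FPKM, and ELANE 17.5 ± 17.3 and 28.4 ± 23.3 FPKM (SD, n = 3). Dendritic cell markers, mostly ITGAX, were higher in each pair, at 233, 128 and 225 FPKM without and 351, 273 and 347 FPKM with amphiregulin, in groups that did not overlap. The part of these lists in the values above was not tested. No gene of the 7 lists around the family was called, and with the replicate block 1 was, the STAT5 target CISH (63.2 ± 52.5 and 172 ± 65.4 FPKM, adjusted p = 0.0371, limma). The BCL2-related survival gene BCL2A1 was 49.8, 77.4 and 59.9 FPKM without and 31.9, 29.9 and 34.3 FPKM with amphiregulin, in groups that did not overlap (adjusted p = 0.902, and 0.105 with the replicate block, limma).

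In the lung comparison, which asks what the dGATA genotype changes after OVA, 0 of the 10 genes were called, beside 0.0947% of 13727 genes (13 genes, with 939 genes at an unadjusted p below 0.05, which none of the 10 reached, limma). Of these calls 46.2% were higher in dGATA lung, against 27.3% with small RNA removed. Bcl2 and Bcl2l11 were the 2 genes whose groups did not overlap, beside 14.1% of all genes. Bcl2l11 was 8.98, 8.75 and 9.23 FPKM in wild-type and 7.63, 8.05 and 8.32 FPKM in dGATA lung (log2 -0.15, SE 0.0762, adjusted p = 0.758, limma), and Bcl2 had a log2 difference of -0.23 (SE 0.0983, adjusted p = 0.726, limma). Mcl1 differed by -0.24 (95% interval -0.49 to 0.01) and Bcl2l1 by 0.55 (-0.06 to 1.16). The eosinophil markers, a check on the labels, summed to 36.3 to 61.6 FPKM in wild-type and 8.14 to 13.4 FPKM in dGATA lung, with Ccr3 at 5.36 ± 0.733 against 0.125 ± 0.111 FPKM and Prg2 at 9.70 ± 3.27 against 0.428 ± 0.311 FPKM (SD, n = 3). In the same list Siglec5 was 7.81 ± 0.704 against 6.09 ± 1.39 FPKM and Il5ra 1.16 ± 0.331 against 0.999 ± 0.856 FPKM, and Epx was near 0 in both groups.

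Within the dGATA lungs, library 1 stood apart for several members. Bid was 1.55 FPKM there against 6.13 and 4.38 FPKM in the other two, Bak1 was 16.1 against 32.3 and 23.2 FPKM, Bax 47.4 against 77.7 and 65.3 FPKM, and Bbc3 5.26 against at least 8.72 FPKM. All 4 genes were lowest in that library among the 6 lungs. Its B and plasma cell markers summed to 63.6 FPKM against 410 and 401 FPKM, its dendritic cell markers to 33.8 against 214 and 85.4 FPKM and its T cell markers to 56.3 against 145 and 113 FPKM, whereas its lung epithelium markers were the highest of the 6. Their part in the values was not tested. Without that library Bbc3 had a log2 difference of 0.39 (unadjusted p = 0.00389, adjusted p = 0.194), Bad 0.35 (adjusted p = 0.196) and Bax 0.36 (adjusted p = 0.268), all higher in dGATA and not called, while Bid turned from -0.37 to 0.06 and Bak1 from -0.03 to 0.22 (limma).

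Between the 6 Th2 and the 6 lung libraries all 10 genes were called, 7 higher and 3 lower in Th2 cells, and 88.5% of 14148 genes were (34.0% higher and 54.5% lower). The number called is thus near the background. The split by direction, with 7 of 10 members higher, was not tested. Of 12 other BCL2 family genes tested, 5 were higher and 6 lower, with a median log2 difference of -0.09. The median log2 difference was 1.08 over the members and -0.38 over all genes. Bcl2 was 5.75-fold higher in Th2 cells (log2 2.22, SE 0.0590, adjusted p = 1.37e-11, limma) and Bcl2l11 3.25-fold higher (log2 1.53, SE 0.0787, adjusted p = 4.30e-09, limma). Bad, which links growth factor signals to BCL-XL, was 3.51-fold lower (log2 -1.64, SE 0.0965, adjusted p = 1.45e-08, limma), and Bbc3 2.38-fold lower (log2 -1.07, adjusted p = 5.46e-05, limma). Mcl1, the third gene called lower (log2 -0.19, adjusted p = 0.0157, limma), lost the call under TPM (0.0714) and median-of-ratios scaling (0.247) and turned to 0.06 with small RNA removed, a scaling that moved the median of all genes to -0.15. Groups did not overlap for 7 of the 10 genes, beside 71.1% of all genes. Cell source, culture and handling cannot be told apart in this comparison.

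Over the 12 mouse libraries, as a description that rests mainly on the gap between T cells and lung, Bcl2 and Bad ran opposite (r = -0.98 on the log2(FPKM + 1) scale) and Bax and Bak1 together (r = 0.95), while Bid and Pmaip1 were only weakly related (r = 0.12). Of the members' nearest genes by the same measure, the 3 closest sets were those of Bcl2l11 (D1Bwg0212e, Ddx46 and Vasp, r = 0.997 to 0.992), Bcl2 (Tox4, Nup54 and Hars, r = 0.997 to 0.996) and Bad (Slc27a1, 9530077C05Rik and Atp6v0a4, r = 0.994 to 0.992).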

How the data were processed

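RNA was sequenced from stranded mRNA libraries of TRIzol RNA, per the labels' protocols. The authors computed the deposited FPKM with Bowtie 0.12.8, TopHat 1.3.2 and Cufflinks 2.0.2 on mm10, per the submitters' processing notes. No source used here gives the build of the human tables. FPKM was summed per symbol, starts were raised by 1, and 116 human genes that can reveal sex were not used. Genes with at least 1 FPKM in 3 libraries were fitted on log2(FPKM + 1), which understates changes of low genes, with limma 3.58.1 in R 4.3.3 (trend, Benjamini-Hochberg over all genes, two-sided). The fit was tested on simulated data. Read counts and total depth are not used here, and relative depth came from the most frequent ratio of FPKM values below 0.2. Members, lists and tests were chosen with earlier results of these data known. All 10 members, up to 4 genes of the smallest p per list, and the 3 nearest genes of 3 members are named; a few others are named by role or because a count was small. One gene that the rule names is not reported here. Same-numbered eosinophil libraries correlated at 0.399, 0.356 and 0.670 after removing group means, above the threshold of 0.1. Differently numbered libraries 2 and 3 also passed it, at 0.308 and 0.281, while those of library 4 stood at -0.506 to -0.428. The threshold therefore cannot establish that the title numbers pair the libraries. The number was also fitted as a replicate block. The values printed are from the fit without that block, and the blocked fit is given beside them as an alternative.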

Additional observations from a re-analysis of the deposited data

How the results depend on the processing

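Over the members, 556 of 594 alternative values kept their direction and their side of the threshold, and the numbers of members called stayed within 1.5 times. Of the 556, 136 were in Th2 cells, where 3 others were reversed, 3 stronger and 7 weaker. Eosinophils gave 112 and lung 131, where few genes were called in any setting. Th2 cells against lung gave 177, where 88.5% of all genes were called. Members in these last comparisons could hardly change sides of the threshold. In Th2 cells Bid, Bcl2l11 and Pmaip1 stayed called in all 15 settings, at log2 -1.69 to -1.14, -0.89 to -0.62 and 0.67 to 1.06; leaving out 1 library gave 2491 to 4641 called genes overall (2491 and 2725 without IL-33 libraries 4 and 2) and -0.0219 to 0.0658 for Bax, which was -0.0461 without libraries 5 and 6. In eosinophils the count over all genes was 7 with a pseudocount of 0.1 FPKM, 8 with a filter of 5 FPKM, 1 with small RNA removed, 141 with the replicate block and 0 to 49 on leaving out 1 library (0 without library 3 or 4 of the controls, 1 without their library 2, and 5, 4 and 49 without amphiregulin libraries 2, 3 and 4). Of uncalled members, BAX was 0.18, BAD 0.11 and PMAIP1 0.0493 after rescaling to a common sum (TPM), which moved the median of all genes from 0.02 to 0.20; MCL1 was -0.0012 with median-of-ratios scaling and BAX 0.0108 with small RNA removed. Leaving out 1 library gave BCL2 -0.29 to 0.71, MCL1 -0.17 to 0.22, BAD -0.34 to 0.0726, BAK1 -0.11 to 0.42, BAX -0.23 to 0.14 and PMAIP1 -0.28 to 0.13. In lung the count over all genes was 3 with the replicate block, 96 with the spread of 12 libraries and 1 to 9 on leaving out 1 (1 without wild-type library 2 or 3 or dGATA library 3, 3 without wild-type library 1, 7 without dGATA library 2). Lung libraries of the same number correlated at -0.286, -0.116 and -0.243 and share only a number; the replicate block called 0 members. Th2 groups share no number, so no block was fitted there. Pmaip1 was -0.0139 under TPM and -0.0098 with small RNA removed, and Bak1 0.0197 with median-of-ratios scaling; leaving out 1 library gave Bak1 -0.27 to 0.22, Bid -0.68 to 0.0581 and Pmaip1 -0.0104 to 0.13. Mcl1 between Th2 cells and lung was 0.0614 with small RNA removed. The cause was not tested for any of these. FPKM without counts gives no counting interval, and a low gene such as Bbc3 or Pmaip1 carries the least precision.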
